A study of Mus musculus with 20 samples.

Results

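Genes for collagens, laminins, integrins, ADAMTS proteases and thrombospondins were followed across N6-methyladenosine (m6A) maps of 5 stages of mouse male germ cells. A gene was a member when its deposited symbol began with Col, Lam, Itg or Thbs in the form of a numbered chain, or with Adamts. The rule found 61 of the 11977 genes that had an m6A peak in any stage, and these members carried 284 of 84778 peaks. Of the 61, 58 encode proteins of these families. The other 3 only share the letters: Col4a3bp (current symbol Cert1) encodes a ceramide transfer protein, Itgb1bp1 a cytoplasmic integrin-binding protein and Itgbl1 an integrin-like secreted protein. Every group was wild-type on a C57BL/6 background, and no allele or treatment separated the groups. The first 2 stages were mitotic cells, undifferentiated and type A1 spermatogonia. Preleptotene spermatocytes, which enter meiosis, came next, then meiotic cells at pachytene/diplotene and, after meiosis, round spermatids. Each was sequenced as 2 antibody-enriched and 2 input libraries, which makes 20 libraries in 10 groups. Ages were not given for these groups, and the labels do not state whether the replicates are of separate animals. The p-values therefore measure only the spread between these libraries, which may be technical.

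Laminins are three-chain proteins built from an alpha, a beta and a gamma chain. They form the basement membrane together with type IV collagen, and cells hold on to it through integrins, receptors made of an alpha and a beta chain. ADAMTS enzymes are secreted metalloproteases that cut matrix proteins, and thrombospondins are secreted proteins that bind matrix and cells. In the testis, spermatogonia sit on the basement membrane of the seminiferous tubule and germ cells leave it as they enter meiosis. The Itga6 and Itgb1 chains are surface markers used to isolate spermatogonial stem cells, and m6A is a base modification of mRNA written by Mettl3 and Mettl14.

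Libraries held 9622068 to 22402907 mapped reads. Between 68.3% and 87.5% of reads mapped in the type A1 libraries and between 92.8% and 97.6% in all others. A gene is called marked where at least 1 peak was listed for it, and values are the authors' log2 enrichments of antibody over input for replicates 1 and 2, as deposited. No table listed a peak below a certain mean enrichment: 1.48, 0.71, 1.42, 1.55 and 0.61 in stage order. Weaker peaks could thus enter the tables of type A1 cells and of round spermatids than those of the other stages. A missing peak cannot tell an unmethylated transcript from a scarce one, and fewer cells of a type cannot be told apart from less RNA per cell.

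The members were marked mostly in undifferentiated spermatogonia. There 52 of 61 had a peak, against a share of 75.9% among all 11977 genes. The number was 18 in type A1 spermatogonia (all genes 61.1%) and 20 in preleptotene spermatocytes (all genes 62.4%). In pachytene/diplotene spermatocytes 6 were marked (all genes 56.1%), and in round spermatids 9 (all genes 46.9%). Member peaks numbered 168, 46, 44, 12 and 14 along the stages, out of 23031, 16392, 18749, 15656 and 10950. When every table was held to its 10950 strongest peaks, the members marked were 29, 15, 17, 5 and 9. That cut keeps the whole round spermatid table. For the other stages the share of all genes under it is not given here, so these counts have no background.

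Markers of somatic testis cells and blood cells moved with the members. Of 47 such markers in 6 lists, 27 (57.4%, against 75.9% of all genes), 1, 5, 0 and 1 were marked along the stages. In undifferentiated spermatogonia these were 10 of 12 Sertoli, 3 of 6 Leydig, 2 of 6 peritubular myoid, 4 of 6 stromal, 2 of 7 endothelial and 6 of 10 macrophage and blood markers. Sox9, a Sertoli factor, read 4.95 and 5.65 there, and Pdgfra, a stromal receptor, 5.80 and 6.00. Markers of undifferentiated spermatogonia themselves were marked 10 of 12, 7 of 12 and 2 of 12 in the first 3 stages. Markers of differentiating spermatogonia were marked 3 of 5, 4 of 5 and 4 of 5 there. Those of meiotic spermatocytes were marked 5 of 7, 2 of 7 and 6 of 7, and those of spermatids 0 of 7 in each. The part of other cells in the member counts was not tested.

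Marking in a single stage was common among the members. In undifferentiated spermatogonia alone, 27 members (44.3%) were marked, against 8.73% of all genes. Only 3 members (4.92%) were marked in all 5 stages, against 24.2% of all genes. Of these 3, Thbs3 encodes a thrombospondin, and the other two are Col4a3bp and Itgb1bp1. Either of the last 2 stages held 11 members (18.0%), against 66.3% of all genes. In contrast, the 7 members marked in all of the first 3 stages and in neither of the last 2 (Itga6, Itgb1, Itgb5, Lama5, Lamb1, Lamb2 and Lamc1) made up 11.5%, near the 11.7% of all genes.

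**Figure D1:**
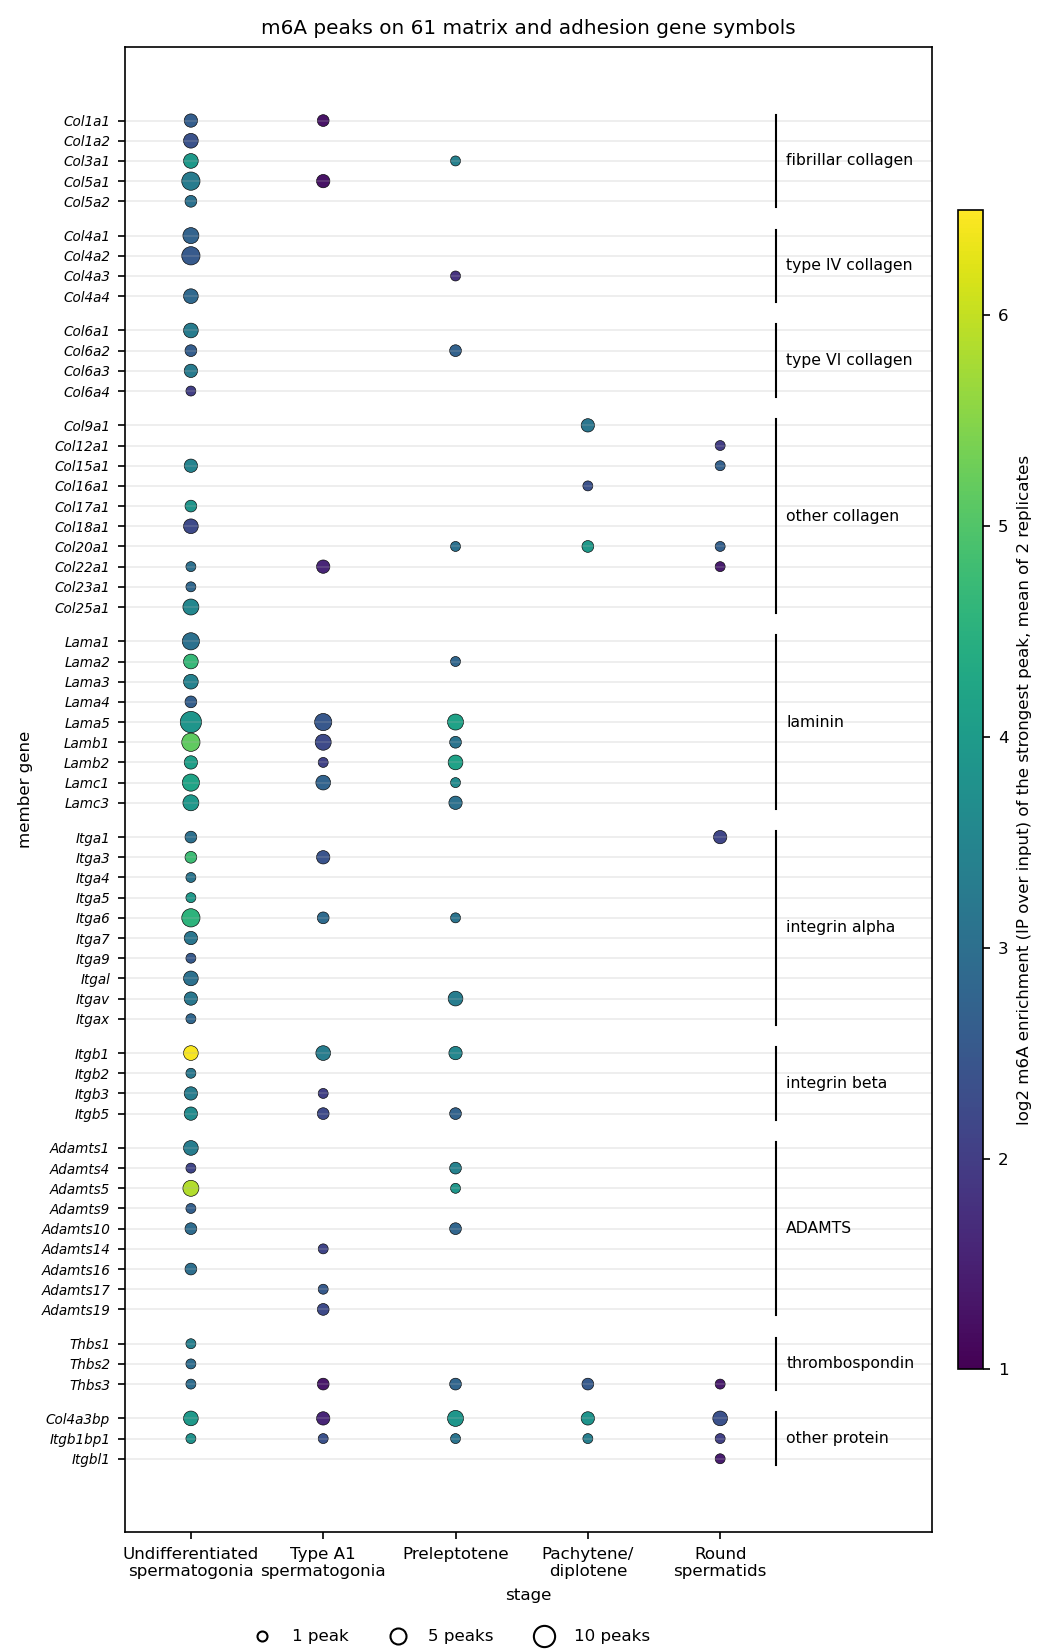
Every member gene (rows, grouped by family) in every stage (columns). Each dot is a marked gene, its size the number of listed peaks and its colour the mean log2 enrichment of its strongest peak over 2 replicates; the first column holds 52 dots and the last 2 columns hold 6 and 9.

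The median enrichment of marked members lay below that of all marked genes in undifferentiated and preleptotene cells and above it in the other stages. The median of the members' strongest peaks was 3.19 in undifferentiated spermatogonia, where it was 3.51 over all marked genes. The corresponding pairs were 2.23 and 2.05 in type A1, 3.12 and 3.36 in preleptotene, 3.25 and 3.23 in pachytene/diplotene, and 2.07 and 1.86 in round spermatids. Marked members above the median of all marked genes numbered 17 of 52, 13 of 18, 8 of 20, 3 of 6 and 6 of 9 in stage order. Replicates of a member peak had a median SD of 0.36, 0.17, 0.23, 0.31 and 0.16 along the stages.

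Laminins were marked most completely in the early stages. All 9 laminin genes had a peak in undifferentiated spermatogonia. Type A1 kept 4 of the 9, preleptotene had 6, and the last 2 stages had 0. Lamb1, a beta chain (chromosome 12, 31265146 to 31329644, mm10), read 4.59 and 5.71 at a coding peak 3487 to 3676 nt from the transcript start in undifferentiated spermatogonia. Its strongest peak read 2.26 and 2.20 in type A1 and 3.11 and 3.11 in preleptotene. These are levels within 3 separately made tables, and no common scaling is stated.

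Lama5, the alpha chain that pairs with Lamb1 and Lamc1 in laminin-511, had 10 peaks in undifferentiated spermatogonia, the most of any member. All 10 lay in the coding sequence. Its strongest peak there, 7950 to 8192 nt from the start, read 3.72 and 4.03. At 7863 to 8171 nt it read 4.21 and 4.12 in preleptotene, and at 7877 to 8162 nt it read 2.36 and 2.61 in type A1. Lamc1, the gamma chain, read 4.03 and 4.38 at 4712 to 4900 nt in undifferentiated spermatogonia, 2.92 and 2.58 at 4812 to 4987 nt in type A1, and 3.54 and 3.71 at 4701 to 4951 nt in preleptotene. These 3 chains were listed at overlapping positions in all of the first 3 stages.

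Lamb2, another beta chain, shared the highest mean of preleptotene with Lama5. Its peak at 55 to 231 nt read 3.98 and 4.36 there, and the overlapping start codon peak read 3.31 and 2.83 in undifferentiated spermatogonia and 2.22 and 1.94 in type A1. Lama1, the alpha chain of laminin-111, had 6 coding peaks in undifferentiated spermatogonia, the strongest at 2.82 and 3.24, and none in any later stage. Lama2, which is mutated in merosin-deficient muscular dystrophy, read 4.32 and 5.07 over its start codon in undifferentiated spermatogonia and 2.54 and 3.08 at the overlapping peak of preleptotene, with no peak in type A1.

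All 14 integrin genes were marked in undifferentiated spermatogonia. Type A1 had 5 of them, preleptotene 4, pachytene/diplotene 0 and round spermatids 1. The single round spermatid gene was Itga1, a chain of a collagen receptor, with 3 coding peaks whose strongest read 2.15 and 2.14.

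Itgb1, the beta chain shared by most laminin and collagen receptors (chromosome 8, 128685654 to 128733579), carried the most enriched member peak. In undifferentiated spermatogonia its 5′ untranslated peak at 117 to 276 nt read 6.05 and 6.83. The matching type A1 peak at 121 to 260 nt read 3.31 and 3.33. No preleptotene peak was listed there, although the deposited ratios give preleptotene values of 6.86 and 5.54 at that place. Absence from a list was therefore not absence of enrichment at this site. The 3′ untranslated peak of Itgb1 was listed in all of the first 3 stages, at 3.29 and 3.78, then 2.61 and 2.20, then 3.40 and 3.69.

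Itga6, the alpha chain of laminin-binding integrins (chromosome 2, 71786886 to 71858427), had 7 peaks in undifferentiated spermatogonia. A coding peak at 303 to 490 nt led, at 4.41 and 4.70. In type A1 and preleptotene the leading peak was in the 3′ untranslated region, near 4516 to 4722 nt, at 3.02 and 2.77 and then 2.60 and 3.63. The overlapping peak of undifferentiated spermatogonia read 3.03 and 3.61. Itgav, an alpha chain of receptors for vitronectin and fibronectin, read 3.12 and 3.25 over its stop codon in undifferentiated spermatogonia and 3.14 and 3.46 in preleptotene, and was not listed in type A1. Itga3, another laminin receptor chain, had the widest replicate gap of all 284 member peaks, 3.63 and 5.89 in the 3′ untranslated region in undifferentiated spermatogonia.

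Itgal, Itgax and Itgb2, chains of leukocyte integrins, were marked in undifferentiated spermatogonia alone. That pattern was not particular to them, since 27 of the 61 members had it, Itga4, Itga5, Itga7 and Itga9 among them. The strongest peaks of Itgal, Itgax and Itgb2 read 3.26 and 2.78, 2.75 and 2.87, and 2.79 and 3.60. Of 10 markers of macrophages and blood cells, 6 had a peak in undifferentiated spermatogonia, where 75.9% of all genes did. Among the 6 were Csf1r at 3.63 and 3.53 and Ptprc at 3.23 and 3.66. Cd68, Adgre1, C1qb and Cd14 had no peak there, and 0 of the 10 had one in any later stage. The part of blood cells in these integrin peaks was not tested.

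**Figure D2:**
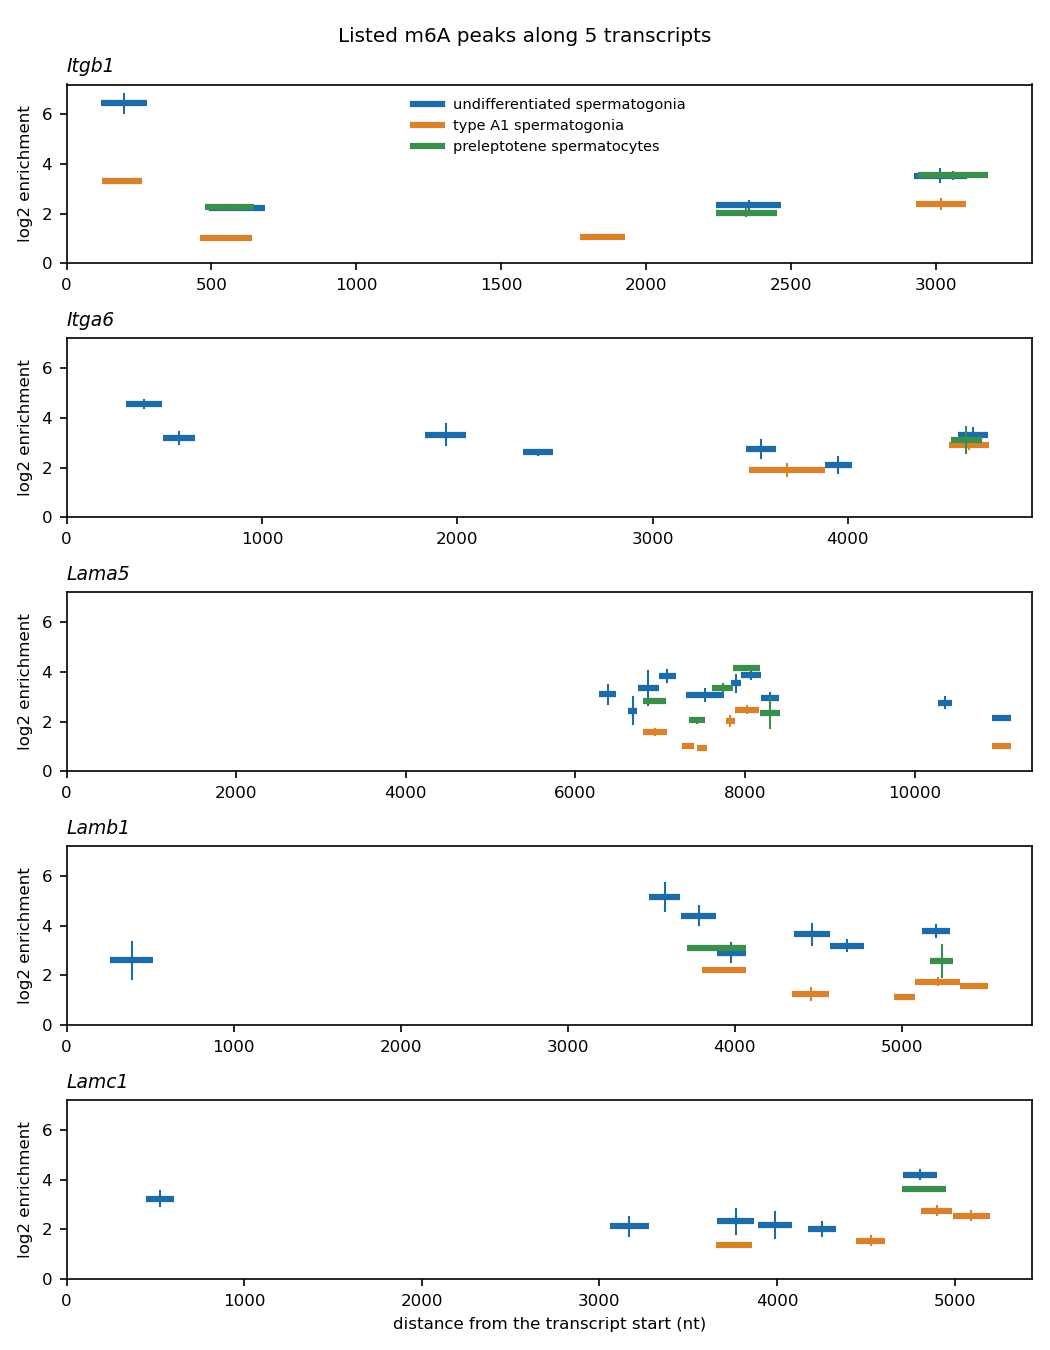
Listed peaks along the transcripts of Itgb1, Itga6, Lama5, Lamb1 and Lamc1, against distance from the transcript start in nt. Horizontal bars span a peak at its mean log2 enrichment, vertical lines join the 2 replicates and colours are stages; the last 2 stages have no peak on these genes, and the highest bar is the Itgb1 peak at 6.05 and 6.83.

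Collagens were marked at a share near that of all genes in the first stage and at lower shares later. In undifferentiated spermatogonia 18 of 23 collagen genes were marked, with 62 peaks (all genes 75.9%). Type A1 had 3 marked genes with 8 peaks (all genes 61.1%) and preleptotene 4 with 5 (all genes 62.4%). Pachytene/diplotene had 3 with 6 (all genes 56.1%), and round spermatids had 4 with 4 (all genes 46.9%). The type IV chains Col4a1 and Col4a2, which share a bidirectional promoter and form the main network of basement membranes, had 5 and 7 coding peaks in undifferentiated spermatogonia and none later. Their strongest peaks read 2.34 and 3.13 for Col4a1, and 2.28 and 2.81 for Col4a2.

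Fibrillar chains were marked 5 of 5 in undifferentiated spermatogonia, and type VI chains, which form beaded microfilaments, 4 of 4. Col3a1 led, at 3.72 and 4.19, and its preleptotene peak at an overlapping place read 3.39 and 3.44. Col1a1 and Col1a2 encode the chains of type I collagen. The strongest Col1a2 peak read 2.53 and 2.24 in undifferentiated spermatogonia, and no peak was listed later. Col1a1 was also marked in type A1, at 1.44 and 1.12, below the lowest listed mean of undifferentiated spermatogonia.

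Other collagens appeared in the late stages. Col9a1, a cartilage collagen, had 3 coding peaks in pachytene/diplotene alone, the strongest at 3.52 and 2.78. Col20a1 was marked in preleptotene, pachytene/diplotene and round spermatids at overlapping positions, at 3.36 and 2.75, then 4.14 and 3.76, then 2.07 and 3.27. Col16a1 was marked in pachytene/diplotene alone, at 2.33 and 2.43, and Col12a1 in round spermatids alone, at 1.66 and 2.35. With Itgbl1 (1.39 and 1.51 in round spermatids), Col9a1, Col12a1 and Col16a1 were the 4 members (6.56%) marked in the last 2 stages and in none of the first 3, where all genes gave 15.4%.

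The ADAMTS genes that were listed differed between stages. Adamts1, Adamts4, Adamts5, Adamts9, Adamts10 and Adamts16 were marked in undifferentiated spermatogonia. In type A1 the marked set was Adamts14, Adamts17 and Adamts19, none of them listed in any other stage. Adamts4, Adamts5 and Adamts10 were listed again in preleptotene, Adamts4 at places that did not overlap its earlier peak. In the last 2 stages 0 of 9 were listed. Though unlisted in type A1, Adamts1, Adamts5 and Adamts10 reached the lowest mean listed there, and Adamts4, Adamts9 and Adamts16 did not. Adamts17 likewise reached the lowest mean listed in preleptotene, and Adamts14 and Adamts19 did not.

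Adamts5, an aggrecan-cutting protease (chromosome 16, 85858157 to 85901125), carried the second most enriched member peak. In undifferentiated spermatogonia 2 adjoining coding peaks, at 1518 to 1701 nt and 1702 to 1896 nt, read 5.67 and 6.05, and 5.36 and 5.68. The preleptotene peak at 1720 to 1930 nt read 3.98 and 3.84. Its neighbour on chromosome 16, Adamts1, had 4 peaks in undifferentiated spermatogonia alone, the strongest at 3.27 and 3.36. Among thrombospondins, Thbs1 (3.21 and 3.56) and Thbs2 (2.41 and 3.46) were marked in undifferentiated spermatogonia alone.

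**Figure D3:**
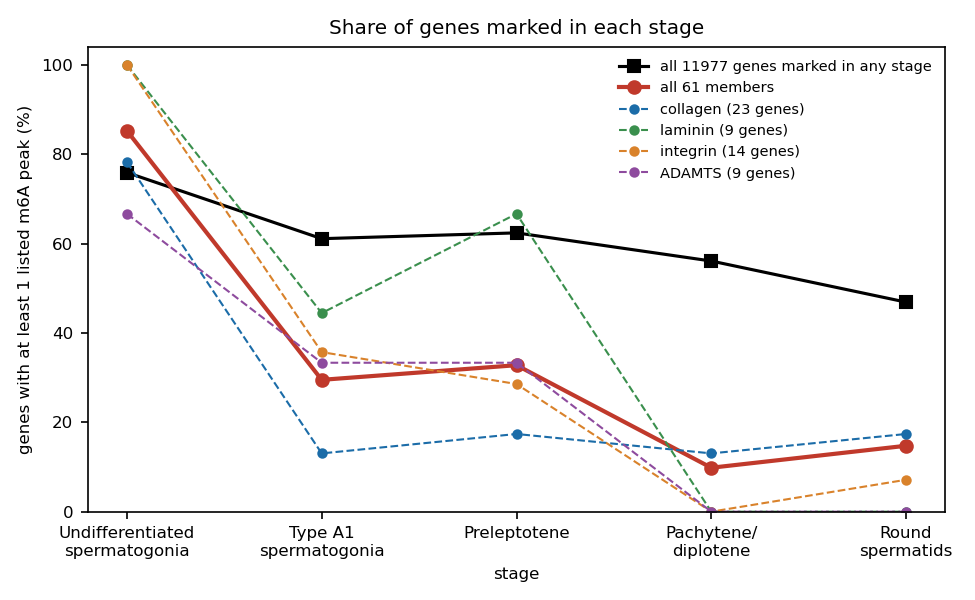
Percent of genes with at least 1 listed peak (vertical axis) in each stage (horizontal axis), for all 11977 genes, the 61 members and 4 member families. Members lie above all genes in undifferentiated spermatogonia, at 52 of 61, and below them in the other 4 stages; lines join stages only to guide the eye.

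Member peaks lay in coding sequence more often than the whole table's peaks. In undifferentiated spermatogonia 132 of 168 member peaks (78.6%) were labelled coding, against 59.9% of all peaks. Stop codon peaks made up 2.98% of member peaks and 9.47% of all, and 3′ untranslated peaks 6.55% and 13.0%. Among the families with more than 3 peaks, laminins had 44 of 47 peaks (93.6%) coding, collagens 53 of 62 (85.5%), ADAMTS genes 10 of 15 (66.7%) and integrins 20 of 36 (55.6%). These shares are descriptions, since peaks of 1 transcript share their source, and transcript lengths were not analysed here. The preleptotene table carries no start or stop codon labels and leaves 9 of 44 member peaks unlabelled.

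Few members stayed listed from undifferentiated spermatogonia to type A1. Of 52, 15 (28.8%) were kept, against 74.3% of all marked genes. The 37 no longer listed compare with a share of 19.5% over all 11977 genes, and the strongest of them were Adamts5, Lama2, Itga5 (3.57 and 4.35) and Col3a1. From type A1 to preleptotene 10 of 18 (55.6%) were kept, against 83.2%. The 8 no longer listed compare with 10.2% over all genes. From preleptotene to pachytene/diplotene 4 of 20 (20.0%) were kept, against 66.2%. Lamb2, Lama5, Adamts5 and Lamc1 were the strongest of the 16 no longer listed (all genes 21.1%). From pachytene/diplotene to round spermatids 4 of 6 (66.7%) were kept, against 65.4%, and the 2 no longer listed were Col9a1 and Col16a1 (all genes 19.4%). The 37 members became 18 when each table was held to its 10950 strongest peaks, a cut for which the share over all genes is not given here.

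New members were fewer than those no longer listed in type A1 and pachytene/diplotene, and more numerous than those in preleptotene and round spermatids. In type A1 3 members were added (all genes 4.73%), which were Adamts17 (2.78 and 2.31), Adamts19 (2.39 and 2.06) and Adamts14 (2.39 and 1.85). In preleptotene 10 were added (all genes 11.5%), led by Adamts5, Adamts4, Col3a1 and Itgav. Then 2 were added in pachytene/diplotene (all genes 14.8%) and 5 in round spermatids (all genes 10.2%). Col15a1, at 2.48 and 2.90, led the round spermatid additions.

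Enrichment values could also be read at places where another stage listed no peak. In the undifferentiated table, 135 of 168 member peaks (80.4%) overlapped no type A1 peak, against 43.5% of all peaks. Of the 135, 54 (40.0%) had a type A1 mean at or above the lowest mean listed in type A1, as did 47.5% of all unlisted peaks. The 37 unlisted genes behaved likewise: in 23, at least 1 peak reached that lowest mean, with Itgav highest at 2.06 and 1.57. In the remainder values were low, and Itga4 and Itgax were at exactly 0 in both type A1 replicates. Toward preleptotene, 8 type A1 members were unlisted, and 5 of them reached the lowest mean listed in preleptotene. Col22a1, Itga3, Col1a1 and Col5a1 read higher in preleptotene than in type A1 at the peak concerned, Col22a1 at 2.54 and 3.29. Over all unlisted type A1 peaks 62.9% read higher in preleptotene, and 57.7% of the member peaks did. Adamts19 was at exactly 0 in both preleptotene replicates.

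Single peaks were tested between a stage and the comparison stage of its table. Values were centred on the median of their library, because the median of all peaks lay 1.79 higher in undifferentiated spermatogonia than in type A1. Differences are thus relative to the typical peak of each table. At an adjusted p under 0.05 in limma (2 against 2, adjusted over all peaks), 29 of 153 member peaks were higher in undifferentiated spermatogonia than in type A1, where 15.9% of all peaks were, and 5 were lower, where 9.22% were. Peaks entered the test because the table's own stage listed them, and 26 of the 29 higher peaks had no listed peak in type A1. Most higher calls thus passed the peak filter only through the stage where they were high, and their number is no support for a general rise. A further 15 member peaks did not enter the test because a value was exactly 0. Without centring the split was 149 higher and 0 lower, where 20638 and 9 of all 22843 peaks were. The counts were 13 and 0 without type A1 replicate 1, and 21 and 3 without type A1 replicate 2. They were 42 and 8 without undifferentiated replicate 1, and 46 and 9 without undifferentiated replicate 2.

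The highest called difference was at Adamts5, 1702 to 1896 nt. It read 5.36 and 5.68 in undifferentiated spermatogonia and 1.66 and 0.74 in type A1, a centred difference of 2.63 (SE 0.34, limma adjusted p = 0.00207). Lamb1 at 3487 to 3676 nt followed, with 4.59 and 5.71 against 0.78 and 1.28, a difference of 2.43 (SE 0.31, limma adjusted p = 0.00195). Before centring, the replicates of the 2 stages did not overlap at either peak, as at 151 of the 153 member peaks tested. The share over all peaks is not given here. Both calls were past the threshold in every alternative that kept the same peaks. Neither peak overlapped a listed type A1 peak, so that both entered the test only through the stage where they were high.

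Col4a3bp, Col15a1 and Col17a1 completed the 5 highest. The Col15a1 peak at 1525 to 2417 nt read 3.02 and 3.92 against −0.46 and −0.37, so that in type A1 it lay below input. Its centred difference was 2.20 (limma adjusted p = 0.00165). Col17a1, a hemidesmosome collagen, read 3.06 and 4.67 against −0.60 and 0.60, and the start codon peak of Col4a3bp 3.46 and 4.12 against −0.44 and 0.23. The Itgb1 peak at 117 to 276 nt was also higher, by 1.498 (SE 0.26, limma adjusted p = 0.00577), a call that quantile normalization ended. By family the calls were 12 higher and 1 lower of 46 laminin peaks, 7 and 1 of 58 collagen peaks, 4 and 3 of 33 integrin peaks and 5 and 0 of 8 ADAMTS peaks. Leaving out values of exactly 0 fell most on ADAMTS genes, which had 15 listed peaks. Listed peaks were 47 for laminins, 62 for collagens and 36 for integrins.

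All 5 lower calls were so on the centred scale alone. The lowest was the Itga6 3′ untranslated peak at 4563 to 4718 nt, with 3.03 and 3.61 in undifferentiated spermatogonia and 3.01 and 2.80 in type A1. Its centred difference was −1.28 (SE 0.26, limma adjusted p = 0.0101). The others were Col4a1 at 1041 to 1220 nt, a second Itga6 peak at 3881 to 4020 nt, Lamb1 at 3892 to 4070 nt and Itgb3 at 2245 to 2403 nt, with differences from −1.10 to −0.80. Without centring the difference at Itgb3 was 0.89 in the opposite direction and past the threshold, and the other 4 were not called. Leaving out type A1 replicate 1 ended all 5 of these calls.

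Separate Itga6 regions were called in opposite directions relative to the typical peak. At 303 to 490 nt it read 4.41 and 4.70 against 1.05 and 0.81 in type A1, a centred difference of 1.94 (SE 0.26, limma adjusted p = 0.00233). Lamb1 did likewise within its own coding sequence, higher at 3487 to 3676 nt and lower at 3892 to 4070 nt. Neither of these higher regions overlapped a listed type A1 peak, so that they entered the test only through the stage where they were high. The lower regions of both genes did overlap listed type A1 peaks. The difference between peaks of the same transcript was not itself tested.

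Between type A1 and preleptotene, 9 of 43 member peaks were higher in type A1 (14.4% of all peaks) and 3 lower (13.6%). None of the 9 higher peaks overlapped a listed preleptotene peak, so that they entered the test only through the stage where they were high. Their number and their calls are thus no support for a general rise. Another 3 were left out for a value of 0, and the median of all peaks lay 1.07 lower in type A1 before centring. Itga3 led with its 3′ untranslated peak at 3795 to 4020 nt, which read 1.86 and 1.58 in type A1 and 0.22 and −0.53 in preleptotene. Its centred difference was 2.94 (SE 0.32, limma adjusted p = 0.00155), and it was higher without centring too. Adamts14 (2.39 and 1.85 against 0.58 and 1.0) and the Itga6 peak at 3496 to 3881 nt (2.13 and 1.66 against 1.12 and 0.76) were also called under every alternative that kept the same peaks.

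The 5 highest were completed by Adamts17, whose call ended without centring, and by the 5′ untranslated peak of Itga3, at 2.28 and 2.46 against 1.81 and 1.38. The 3 lower peaks lay at the 5′ ends of their transcripts. They were the Itgb1 peak at 121 to 260 nt (3.31 and 3.33 against 6.86 and 5.54), the Lamb2 start codon peak at 34 to 170 nt (2.22 and 1.94 against 4.23 and 4.78) and the Col4a3bp peak at 1 to 151 nt (1.62 and 1.56 against 4.25 and 3.61). Centred differences were −1.82, −1.36 and −1.28, with limma adjusted p of 0.0163, 0.0108 and 0.0165. Leaving out type A1 replicate 1 ended all 3 of these calls, and leaving out type A1 replicate 2 ended those at Lamb2 and Col4a3bp. Without centring the split was 4 higher and 23 lower, where 510 and 10777 of all 16309 peaks were. Without type A1 replicate 1 it was 5 and 0, without type A1 replicate 2 it was 5 and 1, without preleptotene replicate 1 it was 12 and 7, and without preleptotene replicate 2 it was 17 and 6.

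Few member peaks were called between preleptotene and undifferentiated spermatogonia. Of 44 tested, 2 were higher in preleptotene (5.36% of all peaks) and 2 lower (2.45%). At an unadjusted limma p under 0.05 there were 15. With 2 libraries against 2, a peak that was not called is not shown to be alike in the 2 stages. Neither of the 2 higher peaks overlapped a listed peak of undifferentiated spermatogonia, so that they entered the test only through the stage where they were high. The start codon region of Lama2 at 70 to 246 nt was lower, at 2.54 and 3.08 against 4.38 and 5.10, by −1.93 (SE 0.34, limma adjusted p = 0.00686) and under every alternative that kept the same peaks. Adamts5 at 1720 to 1930 nt was lower too, at 3.98 and 3.84 against 5.33 and 5.52, but not once either preleptotene replicate or undifferentiated replicate 1 was left out. Adamts4 at 671 to 829 nt was higher, at 3.10 and 2.77 against 1.31 and 0.42, by 2.07 (limma adjusted p = 0.0156), a call that leaving out preleptotene replicate 1 or undifferentiated replicate 2 ended. Col20a1 was the other higher peak (limma adjusted p = 0.0449), and leaving out any 1 of the 4 libraries ended it.

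Few members could be compared between the 2 late stages. Of 12 member peaks listed for pachytene/diplotene, 0 were higher and 0 lower than in round spermatids by limma, where 7.06% and 1.71% of all peaks were. At an unadjusted p under 0.05 there was 1. Without centring 11 of the 12 were higher, where 14533 of all 15514 peaks were. Among round spermatid peaks 6 of 13 were higher than in pachytene/diplotene (16.1% of all peaks) and 0 lower (10.9%). None of the 6 overlapped a listed pachytene/diplotene peak, so that they entered the test only through the stage where they were high. Col15a1 at 2819 to 3078 nt led, at 2.48 and 2.90 in round spermatids and 0.36 and 0.49 in pachytene/diplotene, a centred difference of 3.44 (SE 0.31, limma adjusted p = 0.000429) that was called under every alternative that kept the same peaks. Col12a1 read 1.66 and 2.35 against 0.22 and 1.0, and its call ended without round spermatid replicate 2.

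The remaining round spermatid calls were the 3 Itga1 peaks and Col22a1, which were called only with centring. Itga1 at 2653 to 2939 nt read 2.15 and 2.14 against 2.11 and 1.99, which shows how close the uncentred values were. Without centring 2 member peaks were higher and 4 lower, where 540 and 7457 of all 10810 peaks were. Leaving out round spermatid replicate 1 left 3 higher peaks, and leaving out replicate 2 left 2.

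**Figure D4:**
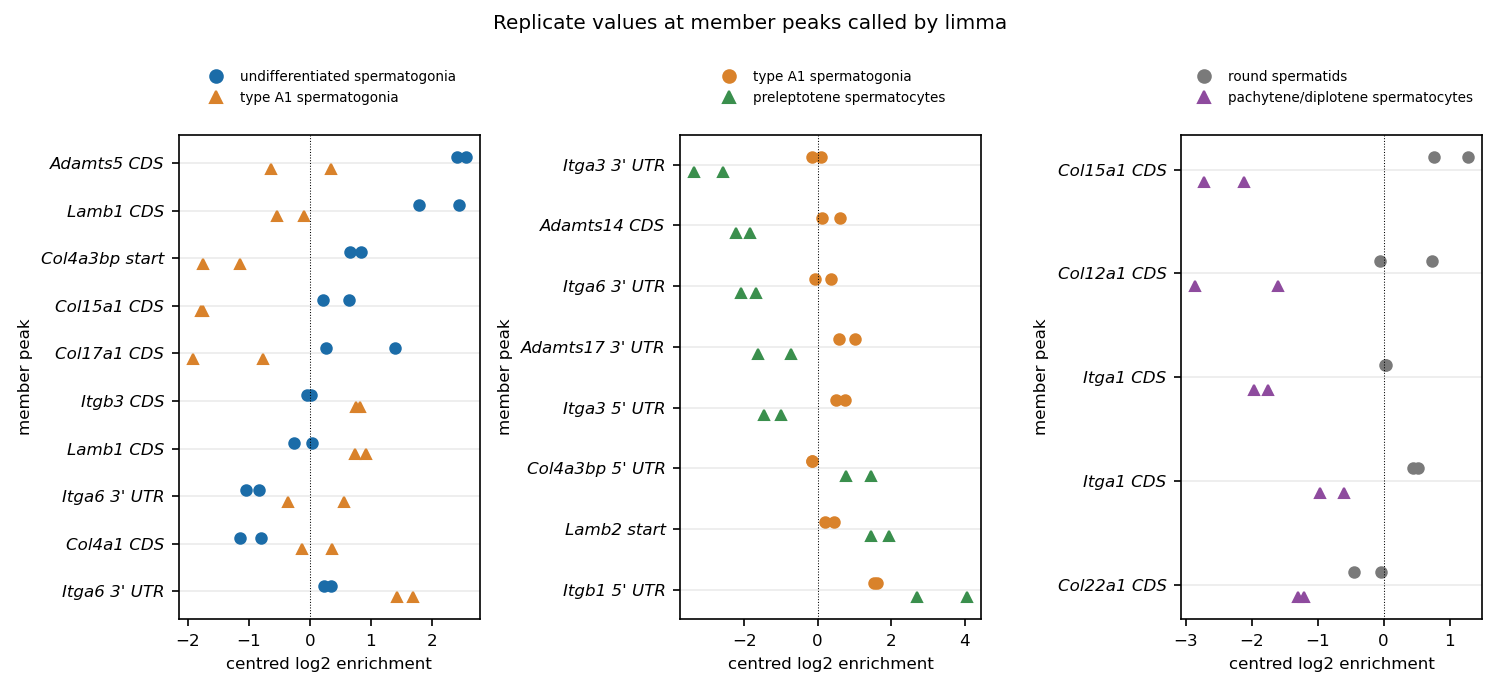
Centred log2 enrichment (horizontal axis, each value minus its library's median over all tested peaks) of both replicates at called member peaks, up to 5 highest and 5 lowest per table. Circles are the table's own stage and triangles the comparison stage. At none of these peaks do the 2 stages' replicates overlap on the centred scale, and the peaks were picked for their called difference.

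Overlapping peaks of the 5 tables were merged into sites, and a site was counted by the most stages whose peaks shared a nucleotide. Of 194 sites on member transcripts, 146 (75.3%) were listed in a single stage, against 38.8% of 31395 sites on all transcripts. Of the rest, 31 were shared by 2 stages, 12 by 3, 2 by 4 and 3 (1.55%) by all 5, where all transcripts gave 11.8%. The 3 sites of all 5 stages lay on Col4a3bp, with 2, and Itgb1bp1, with 1. A Col4a3bp site began at the first transcript position in every stage and read 3.35 and 4.57, 1.62 and 1.56, 4.20 and 3.60, 4.91 and 2.77, and 2.17 and 2.54. A site of 4 stages lay on Thbs3, at 298 to 600 nt, and read 2.89 and 3.02, 1.45 and 1.26, 2.06 and 3.53, and 2.42 and 2.68. Of the 12 sites of 3 stages, 11 were those of the first 3 stages, on Itga6, Itgb1, Itgb5, Lama5, Lamb1, Lamb2 and Lamc1.

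Related genes outside the member families were counted in 6 lists of other matrix and adhesion genes. Of their 110 genes 75, 51, 48, 15 and 14 were marked along the stages, or 68.2%, 46.4%, 43.6%, 13.6% and 12.7%. All genes gave 75.9%, 61.1%, 62.4%, 56.1% and 46.9%. Of 15 other basement membrane genes, 11, 11, 8, 2 and 2 were marked. Nid2, a nidogen that links laminin and type IV collagen, read 4.91 and 5.68 in undifferentiated spermatogonia and 4.84 and 3.61 in pachytene/diplotene. The counts were 13, 5, 4, 1 and 1 of 22 interstitial matrix genes, and 8, 7, 8, 1 and 1 of 18 genes that process or cross-link collagen. They were 10, 4, 6, 1 and 1 of 16 metalloproteinases and inhibitors, and 11, 6, 4, 1 and 2 of 14 other matrix receptors. Of 25 genes of the integrin adhesion complex, 22, 18, 18, 9 and 7 were marked. Vcl (vinculin, 5.46 and 5.76) led these in undifferentiated spermatogonia and the adaptor Crkl (4.53 and 3.64) in pachytene/diplotene, where 0 of 14 integrin genes were marked.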

How the data were processed

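Wild-type mouse germ cells of 5 stages were profiled by m6A-seq, with 2 antibody-enriched and 2 input libraries each. Reads were aligned with TopHat2 2.0.14 to mm10, per the submitters' processing notes. How peaks were called and how libraries were scaled is not given in the sources used here. Per the file headers, the authors deposited 1 peak table per stage, with the gene, RefSeq transcript, position, a log2 enrichment per replicate and a log2 ratio of it to another stage per replicate. Deposited read counts per library, raw and mapped, were used for depth only. The other stage is not named. It was taken as the stage whose overlapping peaks matched the deposited common or unique label for every peak, where any other stage matched at most 79.5%. Its values are the deposited enrichment minus the ratio. Each of the first 2 stages was thus compared with the stage after it, preleptotene with the first stage, and the last 2 stages with each other.

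Members and gene lists were chosen with earlier results of these data known. An overlap means 1 nt or more in common on a transcript. Differences were fitted with limma 3.58.1 (R 4.3.3) on values centred on each library's median, leaving out peaks with a value of exactly 0, with Benjamini-Hochberg adjustment over all peaks of a table. The fit was tested on simulated data. Named genes were, per stage, the 10 members with the strongest peak and the 3 with most peaks, those marked in all 5 or in only the last 2 stages, the 5 highest and 5 lowest called differences per table, the 4 strongest added or no longer listed per transition, and 14 fixed members; not all are printed. Gene coordinates are those of GRCm38.p6. Peaks without a gene ID numbered 803 and were matched by accession, and none was a member. Alternatives are given in the closing section. The tables give no read count per peak, so precision comes only from the 2 replicates.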

Additional observations from a re-analysis of the deposited data

How the results depend on the processing

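Of 160 alternative values for 38 results, 110 kept their side or stayed within the margin set for them and 50 moved. Among single peaks Itgb3 at 2245 nt turned from lower to higher without centring. With each table held to its 10950 strongest peaks, the members marked in undifferentiated spermatogonia were 29 and their peaks 59. Member peaks were then 27 in type A1 and 26 in preleptotene. Members no longer listed numbered 18 in type A1 against 1 in round spermatids, and 1 was added in pachytene/diplotene. At a mean of at least 2, type A1 had 17 member peaks and round spermatids 6. Then 5 members were no longer listed in preleptotene, and 3 were added in round spermatids. Medians over all member peaks were 2.80, 1.59, 2.81 and 1.57 in undifferentiated, type A1, pachytene/diplotene and round spermatid tables. The median of the strongest peak ranged from 2.02 to 2.31 in type A1, 3.12 to 3.45 in preleptotene and 2.77 to 3.52 in pachytene/diplotene when either replicate was used alone.

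Centring mattered most to the calls of single peaks. Without it, higher and lower calls were 149 and 0 in the undifferentiated table, 4 and 23 in type A1 and 2 and 4 among round spermatid peaks. Higher calls were then 11 in pachytene/diplotene and 1 in preleptotene. Most peaks of whole tables were then called higher too, 20638 of 22843 in undifferentiated and 14533 of 15514 in pachytene/diplotene. Leaving out 1 library at a time gave 13 to 46 higher and 0 to 9 lower in the undifferentiated table, 5 to 17 and 0 to 7 in type A1, 0 to 2 and 1 to 2 in preleptotene, and 2 to 6 and 0 to 1 in round spermatids. The libraries concerned are named beside the counts in the results, and the cause was not tested. A lone library was assumed to vary like the other stage. Quantile normalization left 1 higher call in preleptotene. Calls held under every alternative that kept the same peaks for 10 of 34 in the undifferentiated table, 4 of 12 in type A1, 1 of 4 in preleptotene and 1 of 6 in round spermatids.

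The replicate numbers do not pair the samples by any label. Deviations of same-numbered libraries correlated at −0.13, −0.14, 0.12, 0.06 and 0.02 over the 5 tables. With the replicate number as a block, higher calls in preleptotene rose from 2 to 5 and no other count of calls moved by over 1.5 times. A crossed block, chosen after seeing the data, gave 43 higher and 7 lower calls in the undifferentiated table and 12 and 3 in type A1.

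Depth per library does not give the reads behind a peak, and exact zeros removed 15 of 168 member peaks of the undifferentiated table.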

Other observations

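Replicates differed in level in some stages. Replicate 2 exceeded replicate 1 at 134 of 168 member peaks of undifferentiated spermatogonia, and at 80.9% of all peaks of that table. In pachytene/diplotene it did so at 4 of 12 member peaks and 15.7% of all peaks.

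Enzymes that build and cross-link collagen were marked at 8 of 18 in undifferentiated spermatogonia and 7 of 18 in type A1, while collagens went from 18 to 3 of 23 between undifferentiated and type A1 spermatogonia. P3h1, a prolyl hydroxylase of collagen, read 3.86 and 4.71 in undifferentiated spermatogonia, and Plod1, a lysyl hydroxylase, 4.08 and 4.25. The difference between the lists was not tested.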
